A study of Mus musculus with 12 samples.

Results

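The 10 genes described here are Dcn, Lum, Ogn, Fmod, Ptgds, Slc6a13, Slc22a6, Aebp1, Cemip and Igfbp2, non-collagen genes grouped as meningeal fibroblast genes. They were taken by name from the gene symbols of the deposited tables, which list 55385 genes, and all 10 were among the 18091 genes with enough counts to be tested. The libraries are polyadenylated RNA of cerebellum from C57BL/6 mice at postnatal day 14. They comprise 3 wild-type (WT) libraries and 3 EED-/- libraries, titled cKO, from mice that lack Eed, a core subunit of Polycomb repressive complex 2, as labelled. The labels give no Cre driver and no deleted exons, so they do not say which cells lack Eed. They also do not say that each library is a different animal, and p-values here measure only the spread between these libraries, which may be technical. Libraries are numbered by replicate, and a value given without a library, such as WT 3, leaves out that library alone. The comparison asked which transcripts differ between the genotypes. A further 6 ChIP-seq samples of the series were not analysed here.

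The meninges are the membranes around the brain, and their fibroblasts lay down collagen and the proteins that organise it. Fibroblasts of the pia and arachnoid also carry transporters for solutes of the cerebrospinal fluid, and they secrete growth factors and retinoic acid that act on the developing cortex beneath. Dcn, Lum, Ogn and Fmod encode small leucine-rich proteoglycans, which bind collagen fibrils and set their spacing and thickness. Aebp1 encodes a secreted collagen-binding protein, and Cemip a protein needed for the breakdown of hyaluronan. Ptgds encodes lipocalin-type prostaglandin D synthase, Slc6a13 a carrier of GABA and taurine, Slc22a6 an organic anion carrier, and Igfbp2 a secreted protein that binds insulin-like growth factors. Several of these genes are also used outside the meninges: Ptgds by oligodendrocytes and choroid plexus, and Igfbp2 by choroid plexus and astrocytes.

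Promoters of 8 of the 10 genes were found in the RefSeq promoter table for GRCm38.p6; Dcn and Lum were not in it. They are shown because the members differed in CpG content, and CpG-rich promoters are a known feature of many Polycomb targets. The windows run from 250 bases before to 50 bases after a gene's start. The 250 bases before the start are printed for the member that fell, Cemip (chr7:84086506-84086755, minus strand), and for 3 that rose: Aebp1 (chr11:5861616-5861865, plus strand), Fmod (chr1:134037004-134037253, plus strand) and Slc22a6 (chr19:8617746-8617995, plus strand). Each is written 5′ to 3′ on the gene's strand, and capitals mark CpG dinucleotides.
Cemip: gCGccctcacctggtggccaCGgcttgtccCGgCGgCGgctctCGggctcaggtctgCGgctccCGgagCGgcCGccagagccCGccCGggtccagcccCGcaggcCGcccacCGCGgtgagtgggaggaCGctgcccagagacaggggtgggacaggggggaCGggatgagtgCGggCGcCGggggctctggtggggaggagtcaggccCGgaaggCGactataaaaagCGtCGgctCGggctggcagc
Aebp1: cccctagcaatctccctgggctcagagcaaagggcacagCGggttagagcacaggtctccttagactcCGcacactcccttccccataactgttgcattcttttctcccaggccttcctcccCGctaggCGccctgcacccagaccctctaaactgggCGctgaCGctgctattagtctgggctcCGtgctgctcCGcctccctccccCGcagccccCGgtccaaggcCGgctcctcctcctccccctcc
Fmod: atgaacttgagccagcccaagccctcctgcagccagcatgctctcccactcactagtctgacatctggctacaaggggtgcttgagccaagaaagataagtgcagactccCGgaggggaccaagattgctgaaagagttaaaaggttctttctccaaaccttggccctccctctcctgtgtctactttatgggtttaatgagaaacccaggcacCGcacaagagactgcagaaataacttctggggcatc
Slc22a6: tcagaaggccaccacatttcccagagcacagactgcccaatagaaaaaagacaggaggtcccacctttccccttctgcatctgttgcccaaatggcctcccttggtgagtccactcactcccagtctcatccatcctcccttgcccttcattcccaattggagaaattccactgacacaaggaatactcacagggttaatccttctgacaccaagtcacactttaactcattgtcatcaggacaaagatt
In the whole 300-base windows Cemip held 33 CpG, Aebp1 18, Fmod 3 and Slc22a6 2, against a median of 7 over all 32851 promoters of the table. The ratio of observed CpG to the number expected from C and G content was 0.829 for Cemip, and 81.6% of all promoters had a lower ratio. It was 0.602 for Aebp1, 0.155 for Fmod and 0.116 for Slc22a6, with a median of 0.384 over all promoters. Among the remaining members Igfbp2 had ratios of 0.645 and 0.647 at its 2 listed starts, Ogn 0.303 and Ptgds 0.0804, and Slc6a13 ranged from 0.113 to 0.429 over its 3 starts. The genes that rose therefore included CpG-poor and CpG-rich promoters. Of the 11 windows of members, 2 held a TATA box (TATAAA; 13.6% of all promoters), 4 a GC box (GGGCGG; 35.7%), 2 an AP-1 motif (TGANTCA; 7.81%), 3 a TEAD motif (GGAATG; 14.7%) and 0 a forkhead motif (TGTTTAC; 3.65%). Both strands were searched. These are matches of letters in these windows only.

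Eed itself was called lower in EED-/- libraries, at 23.4 ± 3.23 CPM in WT and 10.7 ± 1.23 CPM in EED-/- (SD, n = 3; edgeR's quasi-likelihood test, adjusted p = 0.0015). EED-/- libraries were all lower than WT libraries for Eed, though residual transcripts were present. Levels are in CPM, computed as usual for RNA-seq after TMM scaling of the library totals, and the libraries held 19621814 to 20366173 estimated counts, so that 1 CPM was 18.6 to 21.3 counts. A gene was called changed at an adjusted p under 0.05 in edgeR's quasi-likelihood test over all tested genes. By that rule 11.7% of all tested genes were higher and 14.1% lower in EED-/-. At an unadjusted p under 0.05 in the same test, 3176 of the 18091 tested genes were higher and 3716 lower. Higher genes made up 45.5% of the calls, but 61.3% with upper-quartile scaling, under which the median log2 change over all genes was higher by 0.117, and 58.6% with library size alone.

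Of the 10 members, 9 were called higher and 1, Cemip, lower in EED-/- cerebellum (background 11.7% and 14.1%). The rise was at least 2-fold for 8 of the 9, all but Ptgds, and Cemip was more than 2-fold lower (background 5.77% and 4.6%). The libraries of the 2 genotypes did not overlap for any of the 10. Of all tested genes 43.9% had no overlap, 20.1% with EED-/- higher and 23.8% with EED-/- lower. The rises spanned log2 changes of 0.70 for Ptgds to 1.55 for Lum, and the median over the 10 members was 1.19 against -0.03 over all tested genes. Cemip thus went against the other members under the shared label, and bulk RNA does not show which cells its transcripts came from. The directions were known when the members were chosen, so these counts describe the 10 genes. In bulk RNA more cells of a type and more RNA per cell cannot be told apart.

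**Figure D1:**
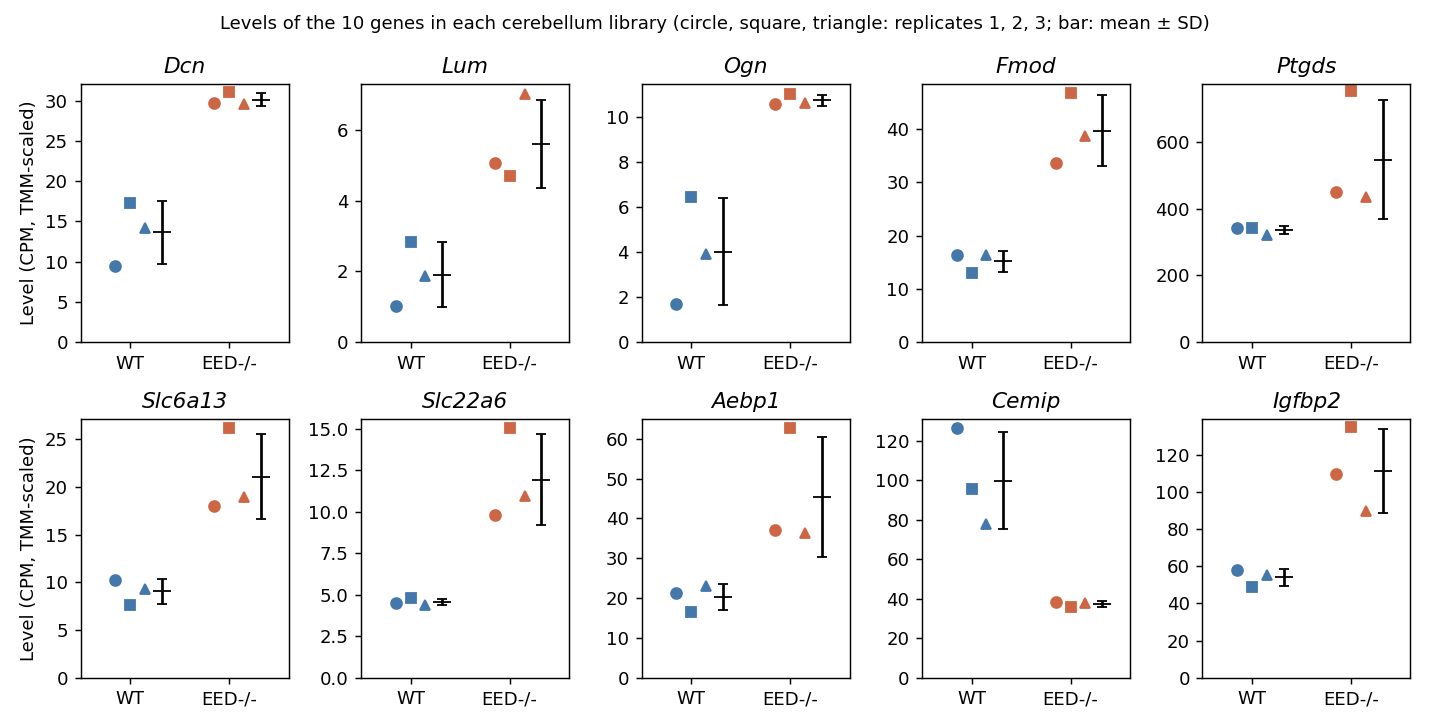
Level of each of the 10 genes (CPM after TMM scaling, linear axis from 0) in the 3 WT (blue) and 3 EED-/- (orange) libraries; circles, squares and triangles are replicates 1, 2 and 3, and the black bar is the mean ± SD. In 9 panels all EED-/- points lie above all WT points, and in the Cemip panel all lie below, at 35.7 to 38.6 CPM against 77.9 to 127 CPM.

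The 4 small leucine-rich proteoglycans were all higher, and they differed from one another in the spread of the WT libraries. Dcn, decorin, which binds collagen fibrils and growth factors of the TGF-beta family, was measured at 9.49, 17.3 and 14.2 CPM in WT replicates 1, 2 and 3. It stood at 29.7, 31.0 and 29.6 CPM in EED-/- replicates 1, 2 and 3. The EED-/- libraries were nearly level with one another, and the WT libraries were spread with replicate 1 lowest. The log2 change of Dcn was 1.14 (SE 0.199, adjusted p = 0.00436), a 2.21-fold rise. Lum, lumican, was low throughout, at 1.03, 2.84 and 1.86 CPM in WT and 5.07, 4.70 and 7.00 CPM in EED-/- replicates. WT replicate 1 was again the lowest, and EED-/- replicate 3 the highest. Its log2 fold change was 1.55 (SE 0.343, adjusted p = 0.0122), and without WT 3 the adjusted p was 0.0516.

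Ogn, osteoglycin (mimecan), followed Dcn in shape. It was at 1.69, 6.44 and 3.93 CPM in WT and at 10.6, 11.01 and 10.6 CPM in EED-/- replicates 1, 2 and 3. Its WT libraries covered a 3.80-fold range and its EED-/- libraries a 1.04-fold range. The log2 fold change was 1.42 (SE 0.385, adjusted p = 0.0293), the call of a member with the largest SE. It was not called without WT 3 (adjusted p = 0.0953), without EED-/- 1, 2 or 3 (adjusted p = 0.0849, 0.0886 and 0.074) or without the filter on low counts (adjusted p = 0.0926). Fmod, fibromodulin, which takes part in collagen cross-linking, had tighter WT libraries at 16.4, 12.9 and 16.3 CPM. Its EED-/- libraries were at 33.7, 46.8 and 38.6 CPM. Replicate 2 was the highest in EED-/- and the lowest in WT. Fmod had the smallest adjusted p of the 10 members, at a log2 change of 1.38 (SE 0.160, adjusted p = 0.000709). On the chromosomes Dcn (chromosome 10, 97479609 to 97518143, plus strand) and Lum (97565128 to 97572703, plus strand) lie 46985 bases apart, Ogn is on chromosome 13 at 49608046 to 49624501 and Fmod on chromosome 1 at 134037254 to 134048277, both on the plus strand, in GRCm38.

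The remaining matrix genes moved in opposite directions. Aebp1 (chromosome 11, 5861947 to 5872088, plus strand) was at 21.3, 16.5 and 23.0 CPM in WT and at 37.0, 62.7 and 36.2 CPM in EED-/- replicates 1, 2 and 3. EED-/- replicate 2 stood 1.73-fold above the lowest EED-/- library, and the genotypes did not overlap. Aebp1 rose by 1.16 on the log2 scale (SE 0.235, adjusted p = 0.00918). Cemip (chromosome 7, 83932857 to 84086502, minus strand) was at 127, 95.4 and 77.9 CPM in WT and at 38.6, 35.7 and 38.0 CPM in EED-/- replicates. The WT libraries were spread, the EED-/- libraries lay within 1.08-fold of one another, and the genotypes were far apart. Cemip changed by -1.42 on the log2 scale (SE 0.174, adjusted p = 0.00094), a 2.67-fold lower level. It was called in each of the 13 other settings, with log2 changes of -1.57 to -1.16.

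Ptgds (chromosome 2, 25466709 to 25470046, minus strand), whose product makes prostaglandin D2 and also carries lipophilic molecules, was the most abundant member and had the smallest rise. WT replicates 1, 2 and 3 were at 342, 342 and 323 CPM, and EED-/- replicates at 450, 753 and 436 CPM. The WT libraries were nearly equal, while EED-/- replicate 2 was 1.73-fold above the lowest EED-/- library. The log2 fold change was 0.70 (SE 0.205, adjusted p = 0.0359). Without EED-/- replicate 2 it was 0.40 (adjusted p = 0.0617), and Ptgds was also not called without WT 1, 2 or 3 (adjusted p = 0.0632, 0.0683 and 0.12). Choroid plexus and oligodendrocytes also use Ptgds, and counts of their markers are given here. Of 12 choroid plexus genes edgeR called 0 higher and 0 lower (background 11.7% and 14.1%), with 1 in each direction at an unadjusted p under 0.05. DESeq2 called 1 of the 12 higher and limma-voom 0, and without EED-/- 3 edgeR called 3 lower. The choroid plexus genes summed to 1283 to 1540 CPM in WT and 855 to 1574 CPM in EED-/- libraries. Of 12 genes of myelinating oligodendrocytes 4 were lower (Mog, Mobp, Mal and Opalin) and 0 higher, with 0 higher at an unadjusted p under 0.05; DESeq2 and limma-voom also called 0 higher. Lower oligodendrocyte genes numbered 2 on upper-quartile scaling or without WT 3, EED-/- 1 or EED-/- 2. The part of these cell types in the Ptgds difference was not tested.

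Both carriers were called higher, each by over 2-fold. Slc6a13 (chromosome 6, 121300227 to 121337733, plus strand), known as GAT2, was at 10.3, 7.67 and 9.25 CPM in WT and at 18.04, 26.2 and 18.99 CPM in EED-/- replicates 1, 2 and 3. EED-/- replicate 2 was the highest and WT replicate 2 the lowest. Its rise was 1.22 on the log2 scale (SE 0.187, adjusted p = 0.00255). Slc22a6 (chromosome 19, 8618039 to 8628299, plus strand), known as OAT1, was at 4.51, 4.78 and 4.39 CPM in WT and at 9.80, 15.1 and 10.96 CPM in EED-/- replicates. Its WT libraries were within 1.09-fold of one another, and each EED-/- library was higher than every WT library. The log2 fold change was 1.39 (SE 0.194, adjusted p = 0.00165).

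Igfbp2 (chromosome 1, 72824503 to 72852474, plus strand), a secreted binding protein of insulin-like growth factors, was at 58.1, 48.9 and 55.3 CPM in WT replicates 1, 2 and 3. EED-/- replicates 1, 2 and 3 were at 110, 135 and 90.0 CPM. The lowest EED-/- library was above the highest WT library, and EED-/- replicate 2 was again the highest. Igfbp2 rose by 1.04 on the log2 scale (SE 0.159, adjusted p = 0.00243).

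**Figure D2:**
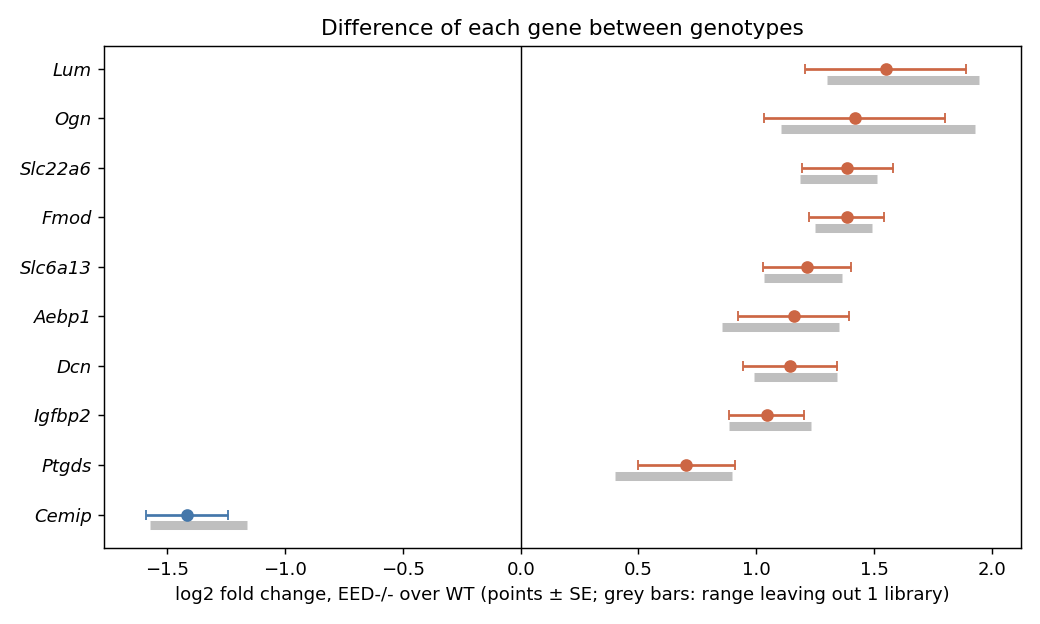
Log2 fold change of EED-/- over WT for each gene (points, bars ± SE from edgeR's test; orange called higher, blue called lower); the grey bar under each point is the range when each of the 6 libraries is left out in turn. All ranges stay on their side of 0, and the Ptgds range reaches down to 0.40.

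The members fell into different shapes across libraries. Among the 9 that rose, 8 had their highest EED-/- value in replicate 2, and Lum had it in replicate 3. For Dcn and Ogn the EED-/- libraries lay within 1.05-fold and 1.04-fold of one another. Dcn, Lum and Ogn had their lowest WT value in replicate 1 and their highest in replicate 2, with WT coefficients of variation of 28.7%, 47.6% and 59.1%. The percent of counts from mitochondrial genes had the same order in WT, at 3.21, 6.37 and 5.22 in replicates 1, 2 and 3. In EED-/- replicates it was 7.16, 6.45 and 8.04, each above every WT library, and its part in the members' differences was not tested. Fmod, Slc6a13, Aebp1 and Igfbp2 had their lowest WT value in replicate 2, with coefficients of 12.98%, 14.4%, 16.5% and 8.72%. In EED-/- libraries the coefficients were 2.73% for Dcn and 2.26% for Ogn, against 32.7% for Ptgds and 33.2% for Aebp1. The labels give no batch, and whether EED-/- replicate 2 stands apart was not tested.

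Set against the fibrillar collagens Col1a1, Col1a2 and Col3a1 of the same library, 8 of the 10 members overlapped between genotypes and 2, Ptgds and Cemip, were lower in EED-/- without overlap. Of the 18088 other tested genes 76% did not overlap on this scale, 75.2% with EED-/- lower and 0.851% with EED-/- higher. In this within-library difference of log2 CPM the scaling factor of a library cancels, apart from the prior count. The collagen reference itself stood at 6.09, 5.55 and 5.79 log2 CPM in WT and at 6.83, 7.31 and 6.81 in EED-/- replicates 1, 2 and 3, and was thus highest in EED-/- replicate 2. The log2 difference from the collagens was -2.63 ± 0.0833 in WT and -2.60 ± 0.0478 in EED-/- for Slc6a13, the steadiest of the members (SD, n = 3). Aebp1 was at -1.48 ± 0.206 and -1.53 ± 0.164, and Fmod at -1.88 ± 0.154 and -1.68 ± 0.128. Igfbp2 was at -0.06 ± 0.155 in WT and -0.20 ± 0.135 in EED-/-. Dcn was at -2.07 ± 0.706 and -2.07 ± 0.244, and its WT libraries ran from -2.83 in replicate 1 to -1.44 in replicate 2. Lum and Ogn had WT SDs of 0.967 and 1.21, with differences between genotypes of 0.42 and 0.41, and Slc22a6 differed by 0.17. Exact two-sided permutation p-values of the 8 overlapping members were 0.2 to 1 (0.667 to 1 adjusted over the 10), in a design where 0.1 is the smallest possible.

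Ptgds and Cemip did not overlap between genotypes on this scale. Relative to the collagens Ptgds was at 2.32, 2.87 and 2.55 in WT and at 1.99, 2.25 and 1.96 in EED-/- replicates, a difference of -0.51. Cemip was at 0.89, 1.02 and 0.50 in WT and at -1.56, -2.15 and -1.56 in EED-/- replicates, a difference of -2.56. Both had an exact two-sided permutation p of 0.1, the smallest that 3 against 3 libraries allow (0.5 adjusted over the 10 members).

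**Figure D3:**
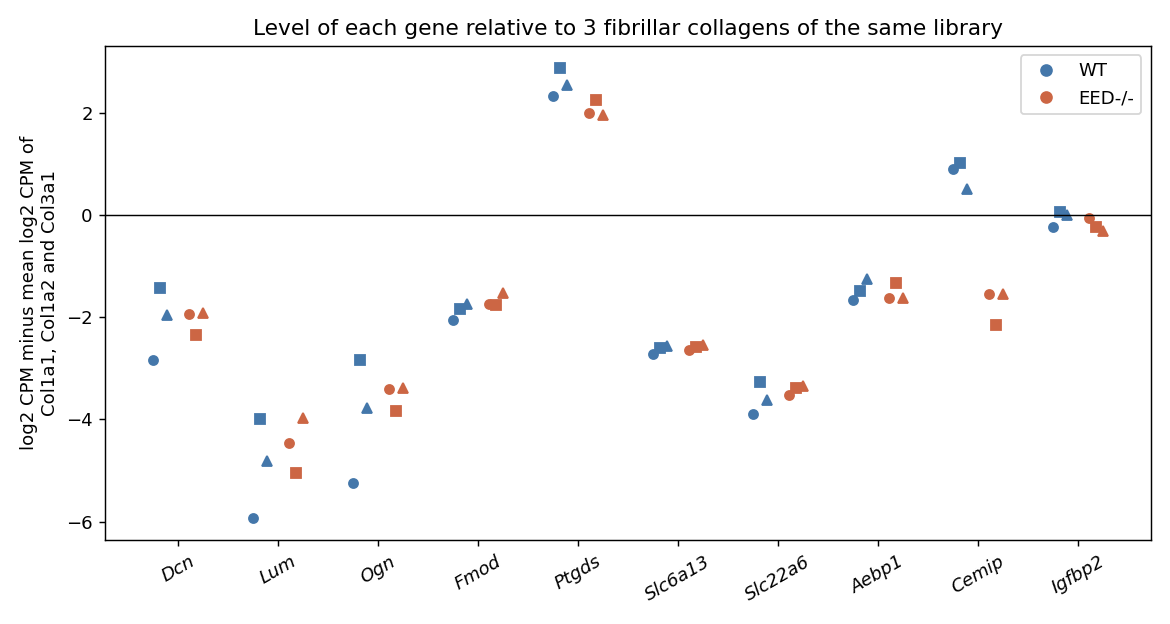
Log2 CPM of each gene minus the mean log2 CPM of Col1a1, Col1a2 and Col3a1 in the same library, for WT (blue) and EED-/- (orange); circles, squares and triangles are replicates 1, 2 and 3, and the line at 0 is the level of the collagens. Slc6a13 lies at about the same height in all 6 libraries, and Cemip is above the line in WT and below it in EED-/-.

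Per length, levels of the members ranged over more than 2 orders of magnitude. On the scale of CPM per kilobase of merged exons in WT, Ptgds was at 204 ± 6.83, Igfbp2 at 29.3 ± 2.55 and Cemip at 8.17 ± 2.02 (SD, n = 3). Aebp1 (4.995 ± 0.824) and Fmod (4.60 ± 0.597) did not differ beyond their spread, nor did Slc6a13 (3.12 ± 0.449) and Dcn (2.34 ± 0.671), whose WT libraries overlapped. Ogn (1.57 ± 0.925) overlapped in turn with Dcn, with Slc22a6 (1.15 ± 0.049) and with Lum (0.780 ± 0.372), so the order of these low members is not settled. In EED-/- libraries Cemip passed from the third to the eighth place, at 3.06 ± 0.127, close to Slc22a6 at 2.997 ± 0.692. With the longest transcript as the length it was in the seventh place, and the order in WT was the same.

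Other genes of meningeal fibroblasts were also higher in part. From a list of 40, excluding the members and collagens, 39 were tested, 21 were higher and 0 lower by edgeR, with 26 higher and 0 lower at an unadjusted p under 0.05. DESeq2 called 22 higher and 0 lower, limma-voom 21 and 0, and edgeR without WT 1 called 1 lower, Aldh1a1. The median log2 change was 0.64. Without WT 3 the higher genes numbered 14, and without EED-/- 1 or 2 they numbered 15. Igf2 rose from 186 ± 8.43 to 487 ± 92.3 CPM, the gap junction gene Gjb2 from 8.24 ± 0.867 to 21.8 ± 3.37 CPM, and the angiopoietin-like gene Angptl2 from 7.83 ± 0.809 to 19.1 ± 1.97 CPM. Of the transcription factors in the list, chosen for naming after their values were seen, Foxc1 (6.87 ± 0.324 to 12.3 ± 2.44 CPM), Tbx18 (3.43 ± 0.433 to 7.50 ± 1.06 CPM) and Twist1 (1.23 ± 0.445 to 3.004 ± 0.998 CPM) passed the test, as did Foxd1, while Foxp1 was not called, with a log2 change of -0.10. Aldh1a2, an enzyme of retinoic acid synthesis, was also called higher, at 6.89 ± 1.27 and 15.7 ± 2.80 CPM. Genes of the list that were not called included Mgp (17.02 ± 2.54 and 15.8 ± 2.39 CPM), Apod (172 ± 10.4 and 168 ± 13.6 CPM) and Cxcl12 (73.6 ± 12.9 and 75.2 ± 7.38 CPM). Of the collagen genes of types I, III, V and VI, 7 of 8 were higher (background 11.7%), Col3a1 at 41.0 ± 4.81 and 111 ± 28.5 CPM.

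Relatives of the 4 proteoglycans moved unevenly. Of 13 other small leucine-rich proteoglycans 11 were tested, 4 were higher and 2 lower (background 11.7% and 14.1%), with a median log2 change of 0.35. Bgn, biglycan, the closest relative of decorin, rose from 21.5 ± 2.23 to 50.0 ± 5.19 CPM (log2 fold change 1.22, adjusted p = 0.000465), and Podn, podocan, from 1.62 ± 0.207 to 4.02 ± 0.389 CPM. Epyc and Omd were the other two, both near or under 1 CPM in WT. Nyx, nyctalopin, which organises retinal synapses, fell from 4.64 ± 1.09 to 1.66 ± 0.314 CPM, and Chad, chondroadherin, from 2.03 ± 0.509 to 0.735 ± 0.171 CPM; without EED-/- 1 only 1 of these was called. Prelp (16.8 ± 4.41 and 16.9 ± 4.16 CPM) and Ecm2 (12.7 ± 2.59 and 12.3 ± 3.86 CPM) gave log2 changes of 0.00 and -0.05.

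Genes of collagen and elastic fibre assembly, the process in which Aebp1 and Fmod take part, were 15 higher and 4 lower of 30 tested (background 11.7% and 14.1%), with a median log2 change of 0.61. Fbln2, fibulin 2, rose from 5.87 ± 0.734 to 19.7 ± 3.34 CPM and Thbs2, a matricellular thrombospondin, from 9.47 ± 0.974 to 23.5 ± 1.84 CPM. Those that fell were Bmp1, a procollagen protease (230 ± 9.61 to 76.6 ± 10.1 CPM), Adamts2, Fbn1 and Tnc. Without EED-/- replicate 2 the higher genes numbered 9. The lower genes numbered 2 on upper-quartile factors, on unscaled library sizes, or without WT 3, EED-/- 1 or EED-/- 3.

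Hyaluronan genes, the setting of Cemip, were 6 higher and 3 lower of 21 tested (median log2 change 0.30, background 11.7% and 14.1%), with the lower share near background. Cemip2, its paralogue, was called lower at 70.3 ± 6.96 and 55.1 ± 2.23 CPM (adjusted p = 0.0497), with Hapln2 and Tnfaip6 the other two. The lower genes numbered 2 or 1 in each of the 13 other settings, and 1 without WT 3, EED-/- 1 or EED-/- 2. The synthases Has1, Has2 and Has3 were not called. The hyaluronan receptor Cd44 rose from 4.95 ± 0.493 to 11.2 ± 1.97 CPM, and the hyaluronan-binding proteoglycans Ncan and Acan from 168 ± 5.42 to 294 ± 26.8 CPM and from 7.64 ± 0.301 to 14.8 ± 2.36 CPM. Higher genes numbered 3 without EED-/- 1.

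In the prostaglandin pathway of Ptgds 10 genes were higher and 1 lower of 17 tested (median log2 change 0.80, background 11.7% and 14.1%), and 6 were higher without WT 3, EED-/- 1 or EED-/- 2. Hpgds, the haematopoietic prostaglandin D synthase, rose from 2.63 ± 1.13 to 7.37 ± 1.28 CPM, and Ptges, a prostaglandin E synthase, from 4.37 ± 0.454 to 10.97 ± 2.01 CPM. Ptgdr, a receptor of prostaglandin D2, was low and rose from 0.366 ± 0.0535 to 1.53 ± 0.208 CPM. Slco2a1, a prostaglandin carrier, fell from 10.7 ± 0.917 to 5.36 ± 0.717 CPM. Among carriers related to Slc6a13, Slc6a11 (GAT3) rose from 347 ± 47.5 to 768 ± 110 CPM, Slc6a6, the taurine carrier, from 173 ± 4.09 to 224 ± 16.0 CPM, and the creatine carrier Slc6a8 fell from 167 ± 9.24 to 112 ± 2.56 CPM. Of the 5 Slc6 carriers tested 2 were thus higher and 1 lower (background 11.7% and 14.1%), and 1 was higher without the filter on low counts, without WT 2 or 3, or without EED-/- 1 or 2. Without WT 2 the lower genes numbered 2. Slc6a12 was not called. Of 13 organic anion carriers and efflux pumps related to Slc22a6 by substrate 4 were higher (Slc22a8, Slco1c1, Slco2b1 and Abcc3) and 2 lower (Slco3a1 and Abcc5), with the lower share near background. These calls were of small changes: 0 or 1 were higher without WT 3 or EED-/- 1 or 2, and 0 were lower on upper-quartile or unscaled library sizes, without the low-count filter, or without WT 3 or any single EED-/- library; without WT 1 or 2, and with RLE factors or DESeq2, 1 was lower.

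Around Igfbp2, 5 of 14 tested genes of insulin-like growth factor signalling were higher and 2 lower (median log2 change 0.13, background 11.7% and 14.1%), with the lower share near background. The higher genes were the ligands Igf2 and Igf1 (10.7 ± 4.08 to 30.9 ± 4.99 CPM), the binding protein Igfbp4 (19.4 ± 0.837 to 38.1 ± 7.04 CPM), and Pappa and Pappa2, proteases that cut binding proteins. Pappa rose from 3.26 ± 0.619 to 11.4 ± 1.18 CPM and Pappa2 from 1.64 ± 0.628 to 7.63 ± 1.596 CPM. The receptor Igf1r fell from 109 ± 8.40 to 80.6 ± 5.54 CPM and Igfbp1 from 0.781 ± 0.267 to 0.174 ± 0.117 CPM. Lower genes numbered 1 on upper-quartile scaling or without WT 1, WT 3 or EED-/- 2, and 0 without EED-/- 1. Igfbp5, the most abundant binding protein tested, was at 249.8 ± 43.4 and 267 ± 18.8 CPM and was not called.

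**Figure D4:**
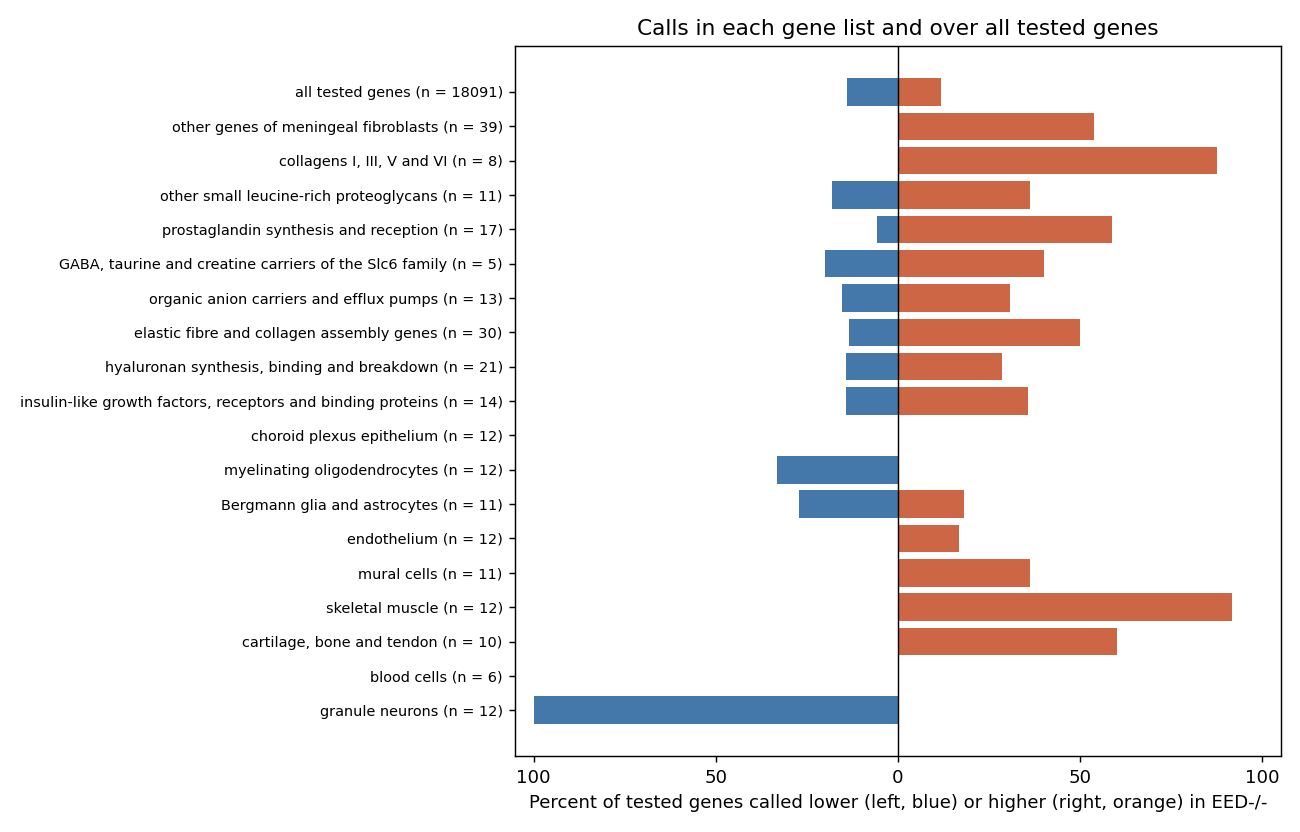
Percent of the tested genes of each list called lower (left, blue) or higher (right, orange) in EED-/- by edgeR at an adjusted p under 0.05, with all 18091 tested genes in the top bar (14.1% lower, 11.7% higher); n is the number tested. Skeletal muscle, collagens, and cartilage, bone and tendon reach furthest to the right, then prostaglandin genes, meningeal fibroblast genes and elastic fibre and collagen assembly genes. Most other lists also have a bar to the right. Granule neuron and myelinating oligodendrocyte genes have a bar only to the left, and choroid plexus and blood genes have no bar.

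Neighbouring genes on the chromosomes were in part called higher, in part called lower and in part not called (background 11.7% higher and 14.1% lower). Beyond Lum lies Epyc, a further proteoglycan gene, 71365 bases away, with 5 counts over the WT and 44.9 counts over the EED-/- libraries (called higher, adjusted p = 0.00431). Kera, between them, had 0 counts in every library. On the lower side of Dcn the nearest tested gene was Btg1, 856800 bases away, which fell from 145 ± 15.2 to 38.2 ± 2.87 CPM. Beside Ogn, Omd at 15224 bases was called higher (0.872 ± 0.231 to 1.70 ± 0.166 CPM), while Aspn, Ecm2 and Nol8 were not called. Beside Fmod, neither Prelp nor Optc nor Btg2, 26893 bases away, was called, and Btg2 was at 13.9 and 13.6 CPM in the means of the genotypes. Slc22a8, 6204 bases from Slc22a6 and of the same carrier family, rose from 27.2 ± 2.96 to 39.7 ± 4.03 CPM, a log2 change of 0.55 against 1.39 for Slc22a6; Chrm1, the muscarinic receptor gene on the other side, was also called higher (2.08 to 4.85 CPM). Slc6a12, 5343 bases from Slc6a13, and Igfbp5, 5458 bases from Igfbp2, were not called. The EED-/- libraries of Slc6a12 were all above its WT libraries, at a log2 change of 0.55. Of all tested genes 20.1% had no overlap in that direction. Pold2, 92 bases from Aebp1, had a log2 change of 0.03, and Polm on the other side was called lower. Usp18 beside Slc6a13, C8g beside Ptgds, Rpl37a beside Igfbp2 and Abhd17c beside Cemip were not called, and Clic3 beside Ptgds was called lower (1.51 to 0.718 CPM).

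Other genes with nearly the same course over the 6 libraries were found by Pearson correlation of log2 CPM, as a description. All points share their libraries and the difference between genotypes, so high values were common: 557 of 16082 genes with at least 1 CPM reached 0.95 with Dcn, and 1101 with Cemip. The 5 named genes most like Dcn were Slc7a11, a cystine carrier (r = 0.998, n = 6), Rasgef1b (0.998), Mapre1 (0.997), Col11a1, a fibrillar collagen (0.996), and Prrx1, a transcription factor of mesenchyme (0.996). Slc7a11 rose from 31.6 to 83.2 CPM and Col11a1 from 16.6 to 48.3 CPM in the means of the genotypes. Mapre1 had a log2 change of 0.31 and was not called (edgeR adjusted p = 0.0607), while the rest of the 5 were called higher. Of the members, Ogn (0.98) and Lum (0.973) were most like Dcn and Ptgds least among those that rose (0.741). The 5 most like Cemip were Actr8, Sirpa, Cnnm4, Tubgcp6 and Ep400 (0.998 to 0.999), each called lower, by log2 changes of -1.07 to -0.38.

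Genes known as markers of muscle, skeletal tissue and blood moved with the members in part (background 11.7% higher and 14.1% lower). Of 12 skeletal muscle genes 11 were higher and 0 lower, with summed levels of 13.0 to 13.4 CPM in WT and 114 to 162 CPM in EED-/- libraries, highest in replicate 2. Myh8 and Myh3, developmental myosins, and the actin Acta1 had the smallest adjusted p-values among them, and Acta1 rose from 1.70 ± 0.198 to 21.9 ± 3.98 CPM. Of 10 tested genes of cartilage, bone and tendon 6 were higher (3 without WT 3) and 0 lower, summing to 53.5 to 67.7 CPM in WT and 99.8 to 133 CPM in EED-/- libraries, highest in replicate 3. Among them Alpl, which meningeal fibroblasts also use, rose from 4.67 ± 0.883 to 17.1 ± 4.39 CPM. Alpl is also in the list of meningeal fibroblast genes and Acan in that of hyaluronan genes, so these calls are counted in both places. Of 6 tested blood genes edgeR called 0 higher, with 5 at an unadjusted p under 0.05; DESeq2 called 2 and limma-voom 0, and edgeR called 1 without the low-count filter or without WT 2, 2 without EED-/- 2 and 5 without EED-/- 3. Blood genes summed to 258 to 559 CPM in WT and to 1783, 1267 and 362 CPM in EED-/- replicates 1, 2 and 3. EED-/- replicate 3, the lowest of its genotype in blood genes, was also the lowest for Dcn, Ptgds, Aebp1 and Igfbp2, while replicate 1 was the lowest for Ogn, Fmod, Slc6a13 and Slc22a6 and replicate 2 for Lum and Cemip. No gene of these 3 lists was at 0 counts in all WT libraries, but some had very few. Ckm had 2 and Myog 4 counts over the WT libraries, against 206 and 126 over the EED-/- libraries. Bulk RNA does not show whether these transcripts came from such tissues or from other cells of the cerebellum. Their part in the members' differences was not tested.

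Vascular, glial and neuronal markers gave other patterns (background 11.7% higher and 14.1% lower). Of 11 mural cell genes 4 were higher (Rgs5, Acta2, Cspg4 and Notch3) and 0 lower, with summed levels of 371 to 398 CPM in WT and 513 to 623 CPM in EED-/- libraries; 8 were higher with upper-quartile scaling and 1 without WT 3 or EED-/- 2. Of 12 endothelial genes 2 were higher (Kdr and Tek) and 0 lower, and 0 were called without WT 3, EED-/- 1 or EED-/- 2. Their sums were 364 to 385 CPM and 415 to 478 CPM. Of 11 genes of Bergmann glia and astrocytes 3 were lower (Slc1a3, Gdf10 and Hopx) and 2 higher (Gfap and Gja1); 1 was higher without WT 3, EED-/- 1 or EED-/- 2. All 12 granule neuron genes were lower, summing to 5147 to 6393 CPM in WT and 611 to 847 CPM in EED-/- libraries. Pax6, which marks granule cells, was called lower, from 134 ± 6.66 to 25.3 ± 2.84 CPM. The part of these shifts in the members' differences was not tested.

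In the authors' deposited table the same 9 members were higher and Cemip lower, each with a deposited adjusted p under 0.05. There 6.04% of genes with a p-value were higher and 6.7% lower. The deposited log2 fold changes ran from 0.73 for Ptgds to 1.58 for Lum among the rises in the authors' deposited table, and Cemip was at -1.40 (deposited adjusted p = 1.51e-11).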

How the data were processed

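RNA-seq of 3 WT and 3 EED-/- cerebellum libraries was used; groups and replicate numbers came from sample titles. The deposited table holds estimated counts per gene and library, not scaled between libraries, per the file's values. The submitters' processing notes name Salmon 1.1.0, Trimmomatic 0.36 and DESeq2 1.26.0 as well as builds GRCm38 and mm10, but no roles; the strand setting was not given in the sources used here. Salmon splits reads among similar genes, so values of close paralogues depend on its model. For each gene the second table deposited by the authors gives a mean normalized signal, a log2 fold change, a Wald score and a p-value, per the file headers, which are those of a DESeq2 results table; symbols came from it.

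Estimated counts were rounded and filtered with filterByExpr, which kept 18091 of 55385 genes. Differences were tested with edgeR 4.0.16 (TMM, glmQLFit and glmQLFTest, robust, genotype only, two-sided, Benjamini-Hochberg over all tested genes, threshold 0.05) in R 4.3.3. The SE was computed as |log2 change| over the root of the F statistic. Log2 CPM used a prior count of 2. Positions and exon lengths came from GENCODE for GRCm38. Alternatives were RLE, upper-quartile and no factors, no filter, DESeq2 1.42.0, limma-voom (limma 3.58.1), the replicate number as a block, and leaving out each library. The procedure was tested on simulated counts.

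Members and the 18 gene lists (268 entries) were chosen with earlier results of these data known. No list therefore has a test of its own, and lists are described by counts and medians. Some genes are in several lists, so the lists are not independent. Genes named were the members, Eed, at most 3 called genes per list, by adjusted p (if none, the gene with the lowest p), the 5 genes most like Dcn and Cemip, and neighbours on the chromosome; any other gene was chosen after seeing its values, so that short counts are complete or uncalled genes are shown. Replicate libraries were distinct: chi-square over degrees of freedom between libraries of a genotype was 8.36 to 55.2. Libraries held 19621814 to 20366173 estimated counts, and values under 1 CPM rest on few counts. A result on a single listed gene is not reported here.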

Additional observations from a re-analysis of the deposited data

How the results depend on the processing

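Across 13 alternatives the counts of members stayed within 1.5 times of 9 higher and 1 lower. Members called higher ranged from 6 to 8 when single libraries were left out (6 without WT replicate 3) and were 8 without the low-count filter, and Cemip was lower in each. No member changed sign in any of the 130 recomputed changes. In 120 the call was kept, and in 10 it was lost: Ogn 5 times, Ptgds 4 times and Lum once, each given beside the gene. Among other genes of meningeal fibroblasts, those called higher ranged from 14 to 24 and those called lower from 0 to 1 when single libraries were left out. Counts over all genes fell from 2125 higher to 1324, 1205 and 1337 without WT replicate 3, EED-/- replicate 1 and EED-/- replicate 2. Without WT replicate 3, EED-/- replicate 1 and EED-/- replicate 3 the lower genes fell from 2544 to 1640, 1335 and 1677. Whether the replicate numbers of the titles pair the samples cannot be told from these libraries. Deviations of same-numbered libraries from their genotype means correlated at 0.0276, -0.233 and -0.00125. Those of differently numbered libraries correlated at -0.188 to 0.198. With 3 libraries per genotype these values do not decide the question. With the replicate number as a block 9 members were higher and 1 lower, 16 other meningeal genes were higher and 0 lower, and over all genes 1505 were higher and 1706 lower; among the smaller lists 0 organic anion carriers were called in either direction, 1 carrier of the Slc6 family, 0 endothelial genes and 1 gene of Bergmann glia and astrocytes were higher, 2 blood genes were higher, and 2 genes of elastic fibre and collagen assembly and 1 of insulin-like growth factor signalling were lower. Levels relative to collagens moved by less than their SD with all 8 collagen genes as reference, with a prior count of 0.5 and without each library, except Slc6a13, whose difference went from 0.03 to 0.14 with the 8 genes. With the longest transcript as the length, 8 of 20 levels per kilobase moved by more than their SD. Precision is limited by 3 libraries per genotype, and by depth for Lum and Ogn, with 20 to 143 and 33 to 234 counts per library.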
